A study of Mus musculus with 10 samples.

Results

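The platelet-derived growth factor (PDGF) and insulin-like growth factor (IGF) genes measured here are the 4 PDGF ligands *Pdgfa*, *Pdgfb*, *Pdgfc*, and *Pdgfd*, the PDGF receptors *Pdgfra* and *Pdgfrb*, the IGF ligands *Igf1* and *Igf2*, and the receptors *Igf1r* and *Igf2r*. They were taken by gene symbol from a table of 55426 mouse genes, and all 10 were expressed above the filter that left 15668 genes for testing. RNA-Seq of the thoracic aorta compared 3 control with 3 *Prdm16*SMKO mice. Both groups carried floxed *Prdm16* alleles (Prdm16f/f) on a C57BL/6J background. The *Prdm16*SMKO mice also carried SMMHC-CreERT2, a tamoxifen-inducible Cre driven by the smooth muscle myosin heavy chain promoter. The study's methods name both floxed mice and mice with the Cre as controls. With the genotypes given here, the presence of the Cre cannot be told apart from the loss of *Prdm16*. PRDM16 is a zinc finger transcriptional regulator, and this Cre removes it from smooth muscle cells, so the endothelium, adventitial fibroblasts, and fat that come with an aorta keep the gene. By the study's methods, the knockout was induced with tamoxifen by oral gavage, followed by a washout, and the knockout mice with this Cre were male. The age at harvest for RNA-Seq and whether the controls received tamoxifen are not given in the sources used here. PRDM16 ChIP-Seq was performed in another cell type, primary vascular fibroblasts with a wild-type genotype. Lentivirus delivered either a Flag-tagged PRDM16 or no insert (vector) over 48 hours, and the cells were then kept in 2 μg/mL puromycin for 1 week, with 1 anti-Flag library per condition, and the peak values therefore have no replicates.

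PDGF ligands are secreted dimers that act on 2 tyrosine kinase receptors. In the vessel wall the PDGF-B chain from endothelial cells is best known for recruiting smooth muscle cells and pericytes through PDGFRβ, whereas PDGF-A and PDGF-C act mainly through PDGFRα on mesenchymal cells, and PDGF-D acts mainly through PDGFRβ. PDGF-C and PDGF-D are secreted as latent factors that need a protease to release the active domain. IGF1 and IGF2 signal for growth and survival through the tyrosine kinase IGF1R, whereas IGF2R, the mannose 6-phosphate receptor, takes up IGF2 for breakdown and carries no kinase. IGF binding proteins hold most extracellular IGF, and the insulin receptor substrates pass the signal of IGF1R and the insulin receptor to PI3K and AKT.

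The starts of 4 of the genes are shown because they hold the extremes of the RNA and peak data given below. *Pdgfd* was the 1 gene of the 10 that passed the RNA test, as lower in the knockout, and it had no PRDM16 peak. *Pdgfc* had the highest log2 fold change of the 10 and a peak just past its start. *Igf1* had no peak near its start, and *Igf1r* had peaks on both sides of its start. Each line gives, from 5′ to 3′ along the gene, the 250 bases before the transcription start site (TSS) in RefSeq for GRCm38.p6, and capitals mark CG dinucleotides. The stretches lie at chr9:6168236-6168485 (*Pdgfd*), chr3:81036166-81036415 (*Pdgfc*), chr10:87860861-87861110 (*Igf1*, the most downstream of its 3 curated TSSs), and chr7:67952007-67952256 (*Igf1r*), all on the plus strand. The last line is the plus strand of chr7:67951475-67951675, the 201 bases around the summit of an intergenic PRDM16 peak upstream of *Igf1r*.
Pdgfd: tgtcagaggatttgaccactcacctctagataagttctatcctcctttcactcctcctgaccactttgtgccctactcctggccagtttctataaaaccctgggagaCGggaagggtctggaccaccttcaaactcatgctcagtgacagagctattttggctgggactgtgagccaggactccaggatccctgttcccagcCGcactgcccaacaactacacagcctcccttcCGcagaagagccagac
Pdgfc: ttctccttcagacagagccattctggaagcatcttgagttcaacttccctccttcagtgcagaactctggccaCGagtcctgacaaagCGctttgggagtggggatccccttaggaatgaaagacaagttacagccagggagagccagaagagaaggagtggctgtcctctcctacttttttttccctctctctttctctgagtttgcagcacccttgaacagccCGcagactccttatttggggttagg
Igf1: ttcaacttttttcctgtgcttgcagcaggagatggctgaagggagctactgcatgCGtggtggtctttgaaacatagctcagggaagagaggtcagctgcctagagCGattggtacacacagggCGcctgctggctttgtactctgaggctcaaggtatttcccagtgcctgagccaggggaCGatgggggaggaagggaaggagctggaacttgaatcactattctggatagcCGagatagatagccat
Igf1r: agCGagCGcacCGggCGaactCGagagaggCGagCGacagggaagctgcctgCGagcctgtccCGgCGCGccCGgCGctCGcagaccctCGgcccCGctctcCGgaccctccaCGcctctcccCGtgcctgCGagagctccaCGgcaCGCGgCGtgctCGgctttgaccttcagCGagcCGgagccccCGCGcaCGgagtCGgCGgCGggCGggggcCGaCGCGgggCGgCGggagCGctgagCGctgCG
Igf1r upstream peak: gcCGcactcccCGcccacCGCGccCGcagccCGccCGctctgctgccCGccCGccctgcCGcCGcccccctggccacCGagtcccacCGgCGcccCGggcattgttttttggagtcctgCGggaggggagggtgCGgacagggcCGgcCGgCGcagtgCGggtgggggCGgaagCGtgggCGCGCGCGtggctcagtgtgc

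The *Pdgfd* and *Pdgfc* stretches held 3 CG dinucleotides each, the *Igf1* stretch 5, the *Igf1r* stretch 42, and the 201 bases at the upstream *Igf1r* peak 27. RefSeq promoter windows of 300 bases (250 before and 50 after the TSS) were found for 8 of the 10 genes, *Pdgfa*, *Pdgfc*, *Pdgfd*, *Pdgfra*, *Igf1*, *Igf2*, *Igf1r*, and *Igf2r*. Over the 32851 such windows of all genes the median was 7 CG dinucleotides. With 48 the *Igf1r* window had more than 98.8% of them. *Pdgfa* had 37 at its upstream TSS, more than 94.4%, and 24 at the other. *Igf2r* with 34 had more than 92.3%, whereas *Pdgfc* and *Pdgfd* had 8 each and *Igf1* had 6. The GATA-type motif AGATAA, searched on both strands, was found once in these windows, in that of *Pdgfd* on the strand shown, beginning 223 bases before the TSS. It is present in 11.2% of all windows. The E-box CACGTG, a palindrome, was found 2 times in the window of *Igf2r* and in no other, and 7.15% of all windows hold it.

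Levels are given as TPM, a transcript abundance scaled for transcript length and for the total of the library, which can be compared between genes. *Prdm16* itself, the targeted gene, was 56.07, 47.56, and 40.28 TPM in controls and 23.31, 33.32, and 23.42 TPM in *Prdm16*SMKO aortas, without overlap, a mean of 55.6% of control. Its log2 fold change of −0.85 ± 0.18 (SE) had an adjusted *P* of 0.0725 by limma. RNA of the cells that keep the gene is part of each sample, and fewer cells of a type cannot be told apart from less RNA per cell in any result on these aortas. Summed TPM of 8 smooth muscle markers was lower in *Prdm16*SMKO aortas (14080 to 18180) than in controls (21020 to 24570), and 7 of the 8 had a log2 fold change below 0. The sum of 5 pericyte markers was higher (761.8 to 1137 against 599.6 to 741.9), although 3 of the 5 had a log2 fold change below 0. Summed markers of fibroblasts, endothelium, macrophages, adipocytes, skeletal muscle, blood, and Schwann cells overlapped between the groups, and no gene of any of these lists passed the test. No listed marker was at 0 in all aortas. The adipocyte sum ranged from 240.0 to 964.4 TPM and the blood sum from 761.1 to 4620 TPM over the 6 aortas.

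*Pdgfrb*, *Pdgfd*, and *Pdgfa* were the most abundant of the 10 in the control aorta, led by the receptor that is typical of smooth muscle and pericytes. In controls the highest mean was that of *Pdgfrb* (86.4 ± 13.6 TPM, SD, n = 3), followed by the ligands *Pdgfd* (72.5 ± 7.04 TPM) and *Pdgfa* (70.2 ± 9.87 TPM). The ranges of these neighbors overlapped. Within an aorta, *Pdgfrb* lay above *Pdgfd* in 3 of 3 controls. *Pdgfd* lay above *Pdgfa* in 2 of 3, so the order of these ligands is not settled by 3 aortas. *Igf1r* (27.0 ± 2.89 TPM) and then *Igf2r* (19.2 ± 0.728 TPM) followed, each below the gene before it without overlap. *Igf2r*, *Igf1* (17.4 ± 3.04 TPM), *Pdgfb* (17.0 ± 4.10 TPM), and *Pdgfra* (16.4 ± 2.76 TPM) overlapped with their neighbors in this order. *Pdgfc* (11.3 ± 0.200 TPM) and *Igf2* (8.46 ± 0.516 TPM) were lowest, and each lay below the gene before it in all 3 controls. The *Prdm16*SMKO aortas kept *Pdgfrb* at the top and *Igf2* at the bottom, while *Pdgfa* lay above *Pdgfd* in 3 of 3 *Prdm16*SMKO aortas and in 1 of 3 controls.

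**Figure D1:**
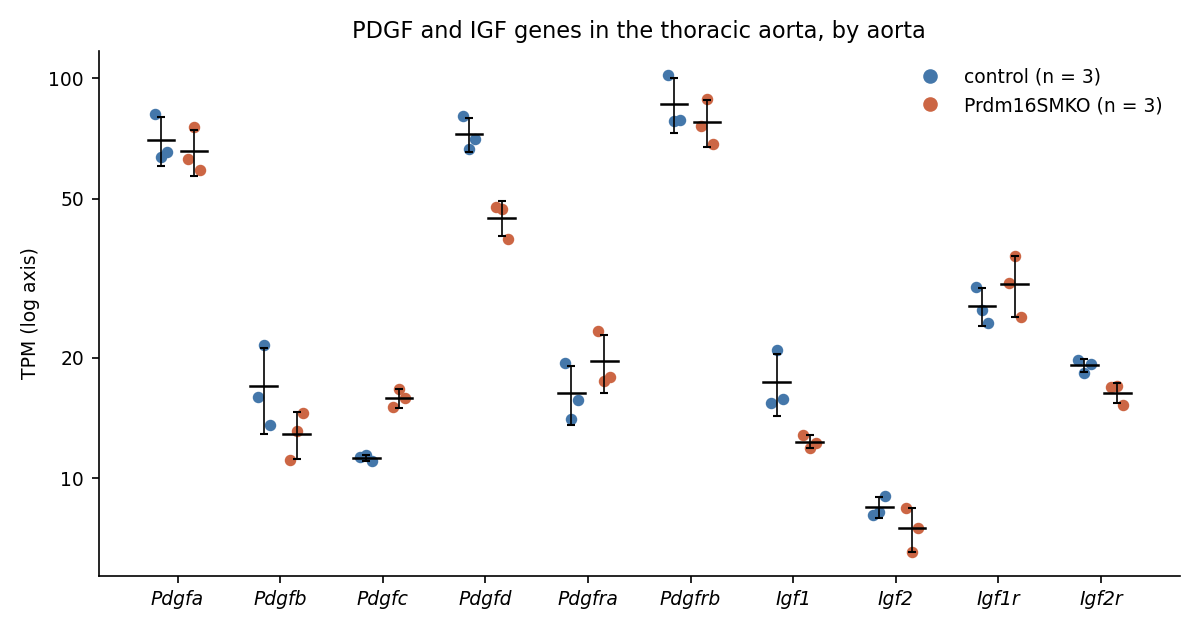
TPM of the 10 PDGF and IGF genes on a log axis, with 1 point per thoracic aorta, 3 control (blue) and 3 *Prdm16*SMKO (orange). Horizontal lines are means and bars are SDs. The 2 groups do not overlap for *Pdgfc*, *Pdgfd*, *Igf1*, and *Igf2r*.

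The comparison of the 2 groups asks what differs in the aorta between mice with and without the Cre-driven loss of *Prdm16* in smooth muscle cells. Of the 10 genes, 1 was called at an adjusted *P* below 0.05 by limma, *Pdgfd*, which was lower in the *Prdm16*SMKO aortas. Of all 15668 tested genes 168 were called (1.07%), 107 lower (0.683%) and 61 higher (0.389%). By its own test, the study lists more genes than these, even when only those with a PRDM16 promoter peak are counted. The groups did not overlap for 4 of the 10 genes. *Pdgfd*, *Igf1*, and *Igf2r* were lower without overlap, as were 14.9% of all tested genes, and *Pdgfc* was higher without overlap, as were 4.08%. An unadjusted *P* below 0.05 by limma was reached by 3 of the 10 genes, *Pdgfd*, *Pdgfc*, and *Igf1*, and by 1986 of the 15668 tested genes. The median log2 fold change of the 10 genes was −0.16, beside −0.12 for all tested genes. The most abundant transcript of the table, CT010467.1, took from 20.2% to 28.2% of all TPM and the mitochondrial genes from 14.7% to 26.5%. Relative to the all-gene median, 4 of the 10 genes were higher and 6 lower.

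*Pdgfd* encodes the PDGF chain that acts mainly through PDGFRβ and lies on chromosome 9 (6168363 to 6534284, plus strand, GRCm38). Its level was 80.33, 66.68, and 70.51 TPM in controls and 47.77, 47.03, and 39.55 TPM in *Prdm16*SMKO aortas. Each *Prdm16*SMKO aorta lay below each control. The mean fell to 61.8% of control, with a log2 fold change of −0.69 ± 0.13 (SE), a 95% interval from −0.99 to −0.40, and an adjusted *P* of 0.047 by limma. Relative to the all-gene median the log2 difference was −0.58. The call was close to its threshold and was lost when any of the 6 aortas was left out (adjusted *P* from 0.11 to 0.178, log2 fold change from −0.75 to −0.61), without a mean-variance trend (0.172), without a filter on low genes (0.0751), and with the replicate number as a block (0.0551). Of the 14 alternative settings, 5 kept the call and all 14 kept the direction. Smooth muscle markers moved the same way, and their part in this result was not tested.

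*Pdgfc*, on chromosome 3 (81036416 to 81214040, plus strand), encodes the latent ligand that acts mainly through PDGFRα. It measured 11.30, 11.42, and 11.03 TPM in controls and 15.04, 16.73, and 15.86 TPM in *Prdm16*SMKO aortas. All *Prdm16*SMKO values were above all controls, and the controls differed little among themselves. The mean was 141.1% of control, with a log2 fold change of 0.49 ± 0.13 and an adjusted *P* of 0.135 by limma, which missed the threshold. After rescaling by median ratio the log2 fold change was 0.61 with an adjusted *P* of 0.0317, and after quantile normalization 0.60 and 0.0352. In the other 12 settings it was not called. By its own test, the study lists *Pdgfc* in its supplement among the upregulated genes with a PRDM16 promoter peak.

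The other PDGF ligands differed less between the groups. *Pdgfa* (chromosome 5, 138976014 to 139000792, minus strand), one of the main ligands of PDGFRα, was 81.58, 63.72, and 65.39 TPM in controls and 62.73, 75.33, and 58.87 TPM in *Prdm16*SMKO aortas. The groups overlapped throughout, and its log2 fold change of −0.10 (95% interval, −0.42 to 0.23) changed sign under both rescalings and without control replicate 1. *Pdgfb* (chromosome 15, 79995865 to 80024614, minus strand), the ligand for mural cell recruitment, was 15.94, 21.56, and 13.57 TPM in controls and 11.13, 13.11, and 14.54 TPM in *Prdm16*SMKO aortas. The highest *Prdm16*SMKO value exceeded the lowest control. Its log2 fold change was −0.38 (95% interval, −0.82 to 0.06; adjusted *P* by limma, 0.461). Summed over the 4 ligands, TPM was 171 ± 15.8 in controls and 139 ± 11.9 in *Prdm16*SMKO aortas. *Pdgfd* made up 42.4% ± 1.56 of that sum in controls and 32.2% ± 2.40 in *Prdm16*SMKO aortas, *Pdgfa* 41.0% ± 2.07 and 47.0% ± 2.14, and *Pdgfc* 6.61% ± 0.556 and 11.4% ± 0.758 (SD, n = 3 each), with *Pdgfb* making up the rest.

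Neither PDGF receptor was called. *Pdgfra* (chromosome 5, 75151322 to 75198206, plus strand), the receptor found on fibroblasts and other mesenchymal cells, was 19.43, 14.06, and 15.67 TPM in controls and 23.38, 17.53, and 17.97 TPM in *Prdm16*SMKO aortas. The first control lay among the *Prdm16*SMKO values, and the log2 fold change was 0.26 (95% interval, −0.13 to 0.65; adjusted *P* by limma, 0.573). *Pdgfrb* (chromosome 18, 61045127 to 61085067, plus strand) was 102.07, 78.26, and 78.75 TPM in controls and 76.10, 88.90, and 68.44 TPM in *Prdm16*SMKO aortas. Its groups overlapped, and its log2 fold change was −0.15 (95% interval, −0.48 to 0.19), with a change of sign under quantile normalization. Both intervals include 0.

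The IGF ligands were expressed at low to moderate levels, and neither was called. *Igf1* (chromosome 10, 87858265 to 87937047, plus strand) was 15.45, 20.89, and 15.81 TPM in controls and 12.85, 11.92, and 12.29 TPM in *Prdm16*SMKO aortas. The *Prdm16*SMKO values were tightly grouped below all controls. The mean was 71.1% of control, with a log2 fold change of −0.48 ± 0.16 (95% interval, −0.83 to −0.12) and an adjusted *P* of 0.238 by limma, and the adjusted *P* stayed between 0.21 and 0.538 over the 14 alternatives. *Igf2* (chromosome 7, 142650768 to 142666816, minus strand), an imprinted growth factor gene that is most active before birth, was 8.08, 8.26, and 9.05 TPM in controls and 8.46, 6.56, and 7.5 TPM in *Prdm16*SMKO aortas. Its values overlapped (log2 fold change, −0.18; 95% interval, −0.54 to 0.18).

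The 2 IGF receptors had fold changes of opposite sign, and neither was called by limma. *Igf1r* (chromosome 7, 67952257 to 68233668, plus strand), the signaling receptor, was 30.12, 26.39, and 24.43 TPM in controls and 30.74, 35.95, and 25.33 TPM in *Prdm16*SMKO aortas. The groups overlapped, with a log2 fold change of 0.18 (95% interval, −0.18 to 0.53). By its own test, the study lists *Igf1r* in its supplement as upregulated with a PRDM16 promoter peak. *Igf2r* (chromosome 17, 12682406 to 12769706, minus strand), the clearance receptor, was 19.79, 18.36, and 19.31 TPM in controls and 16.88, 16.99, and 15.24 TPM in *Prdm16*SMKO aortas. These groups did not overlap, and the difference was small (log2 fold change, −0.23; 95% interval, −0.51 to 0.06; adjusted *P* by limma, 0.489). The antisense gene *Airn*, which lies across the start of *Igf2r* on the other strand, was measured at 9.86 to 16.24 TPM over the 6 aortas, and 6330403L08Rik, antisense to *Pdgfa*, at 10.6 to 17.59 TPM. The library kit is not stated to keep strand, so reads in the stretches that such pairs share cannot be told apart. The other genes that overlap 1 of the 10, among them *Igf1os* and *Igf2os*, stayed at or below 2.39 TPM.

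**Figure D2:**
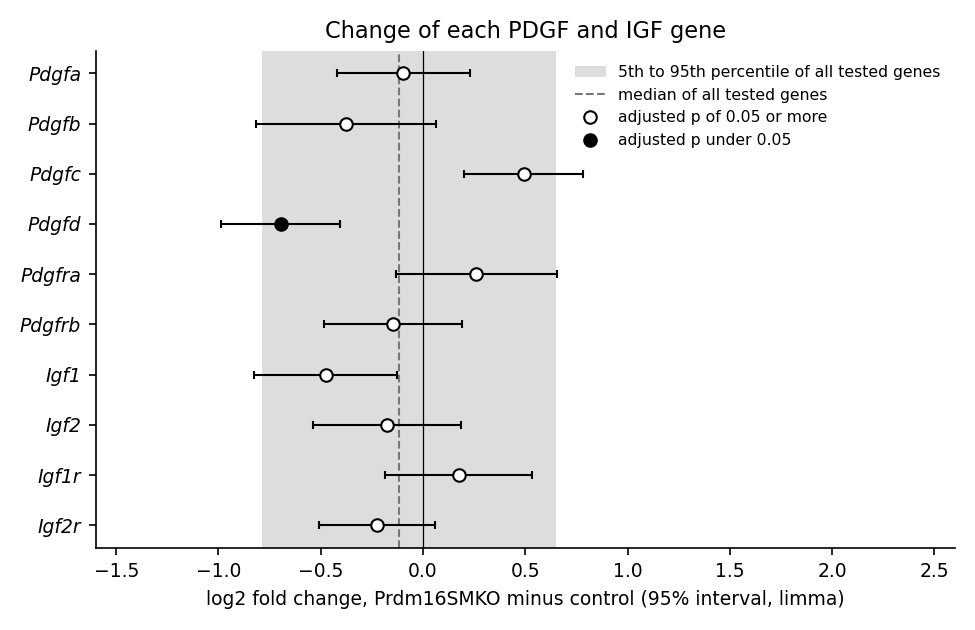
Log2 fold change of each gene, *Prdm16*SMKO minus control, on the scale of log2(TPM + 0.1), with 95% intervals from limma. The gray band spans the 5th to 95th percentile of all tested genes (−0.785 to 0.649) and the dashed line is their median (−0.116). *Pdgfd*, the filled point, is the 1 gene of the 10 with an adjusted *P* below 0.05.

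The ratio of 2 genes within an aorta does not depend on how its TPM were scaled, and 4 such ratios were compared. With 3 aortas against 3 the exact 2-sided permutation test cannot give a *P* below 0.1, and all 4 adjusted *P* values over the 4 ratios were 0.2. The ratio of the ligands *Pdgfa* plus *Pdgfc* to *Pdgfb* plus *Pdgfd* was 0.965, 0.852, and 0.909 in controls and 1.32, 1.53, and 1.38 in *Prdm16*SMKO aortas. On the log2 scale it was −0.14 ± 0.09 and 0.49 ± 0.11 (SD), a difference of 0.63 without overlap, with an exact permutation *P* of 0.1. The ratio was below 1 in each control and above 1 in each *Prdm16*SMKO aorta.

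The ratio of *Igf2r* to *Igf1r* was 0.657, 0.696, and 0.790 in controls and 0.549, 0.473, and 0.602 in *Prdm16*SMKO aortas. It did not overlap between the groups, with a log2 difference of −0.40 and an exact permutation *P* of 0.1. The ratio of *Pdgfra* to *Pdgfrb* was 0.190, 0.180, and 0.199 in controls and 0.307, 0.197, and 0.263 in *Prdm16*SMKO aortas. The second *Prdm16*SMKO aorta lay within the control range, and the log2 difference of 0.41 had an exact permutation *P* of 0.2. The ratio of *Igf1* to *Igf2* was 1.91, 2.53, and 1.75 in controls and 1.52, 1.82, and 1.64 in *Prdm16*SMKO aortas, with overlap, a log2 difference of −0.30, and an exact permutation *P* of 0.2.

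**Figure D3:**
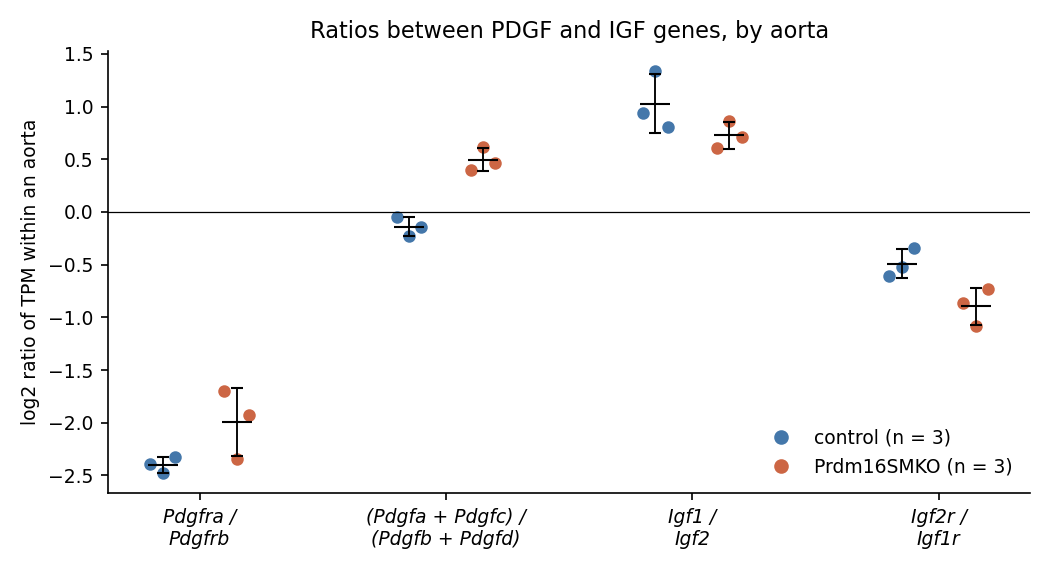
Log2 ratios of TPM within each aorta for 4 pairs of genes or sums of genes, with 1 point per aorta, 3 control (blue) and 3 *Prdm16*SMKO (orange), means as horizontal marks, and SDs as bars. The ligand ratio lies below 0 in all controls and above 0 in all *Prdm16*SMKO aortas, and the ratio of *Igf2r* to *Igf1r* also has groups without overlap.

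PRDM16 peaks lay in or near 9 of the 10 genes in the fibroblasts that expressed the Flag-tagged protein. The 1 without any was *Pdgfd*, which limma called lower in the aorta close to its threshold. The PRDM16 anti-Flag list held 11271 peaks, of which 25 lay in or near these genes, counted where a peak overlapped the gene, had its centre within 2 kb of a curated TSS, or had its centre within 50 kb of the gene with the nearest protein-coding TSS being that of the gene. The vector anti-Flag list of 67 peaks had 0 there by the same rule. So short a list would hold few or no peaks at most sets of 10 genes, so this 0 says little about them. Of all 12499 tested protein-coding genes, 50.3% had at least 1 PRDM16 peak in or near them. The 25 peaks were 230 to 1543 bp wide and had fold enrichments at the summit from 3.41 to 8.79, with a median of 5.27, the same as the median of the whole list. In 2 of the 25 the q value was above 0.01, the threshold named in the study's methods. These were the single peak of *Igf1* and the *Igf1r* peak 69378 bp after its TSS, so *Igf1* has no peak that meets that threshold.

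A promoter peak, with its centre within 2 kb of a curated TSS, was found at 6 of the 10 genes. The share among all tested protein-coding genes was 43.7%, and among those with a mean TPM of at least that of the lowest of the 10 (7.99 TPM) it was 49.3%. By family these were 5 of the 6 PDGF genes and 1 of the 4 IGF genes. At least 2 promoter peaks were found at *Pdgfa* (2), *Pdgfra* (3), *Pdgfrb* (2), and *Igf1r* (3), and at 6.77% of tested protein-coding genes. The 10 genes have from 1 to 4 curated TSSs, and a gene with more of them has a wider promoter window.

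At the PDGF receptors, the peaks of *Pdgfra* lay among its 3 curated TSSs and those of *Pdgfrb* also ran along its introns. The peak with the highest fold enrichment at *Pdgfra* (8.06, above 90.5% of all peaks; chr5:75155971-75156358) was centred 1 bp from the most downstream TSS, which is intronic in the longer transcripts. The others were centred 404 bp after the second TSS (chr5:75153087-75153592; 5.27-fold) and 1559 bp before the third (chr5:75154012-75155202; 5.63-fold). *Pdgfrb* had 6 peaks on chromosome 18, centred 449 bp before its TSS and 1702, 9686, 11770, 13656, and 27313 bp after it. That at 9686 bp, in an intron, had the highest fold enrichment of the 25 (8.79).

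Of the PDGF ligands, *Pdgfc* had a single peak in its 5′ untranslated region, centred 369 bp after the TSS (chr3:81036423-81037146), with a fold enrichment of 7.75, above 90.0% of all peaks. It begins just past the *Pdgfc* stretch printed above. *Pdgfb* had a promoter peak centred 754 bp after its TSS (chr15:80013583-80014862; 7.51-fold), an intronic peak 2280 bp after it, and an upstream peak 9609 bp before it. *Pdgfa* had peaks centred 113 bp (chr5:138994716-138994945; 5.27-fold), 1002 bp, and 3080 bp after its curated TSSs. *Pdgfd* had no peak in 365.9 kb of gene, and the nearest peaks on chromosome 9 lay 1.79 Mb before and 1.23 Mb after it, although that chromosome held 621 PRDM16 peaks. The absence of a called peak in 1 library does not show that PRDM16 is not bound there.

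In the IGF family *Igf1r* was the gene with promoter peaks. Its 6 peaks were centred 1525 and 684 bp before its TSS (chr7:67950538-67950925; 5.98-fold and chr7:67951383-67951762; 4.57-fold), 901 bp after it at the start of the first intron (chr7:67952387-67953929; 4.92-fold), and 69378, 70180, and 96727 bp after it within introns. The 684-bp peak is the one whose summit sequence is printed above. At least 6 peaks, the number at *Igf1r* and *Pdgfrb*, were found in or near 0.856% of tested protein-coding genes, and *Igf1r* spans 281.4 kb. *Igf2* had 1 intronic peak, 2664 bp after its most upstream TSS (4.92-fold), which also lies in *Igf2os*. *Igf2r* had 1 intronic peak 11950 bp after its TSS (4.92-fold), which lies in *Airn* as well. The single peak of *Igf1* was intronic, 65580 bp after a TSS, with the lowest fold enrichment of the 25 (3.41, above 4.77% of all peaks).

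**Figure D4:**
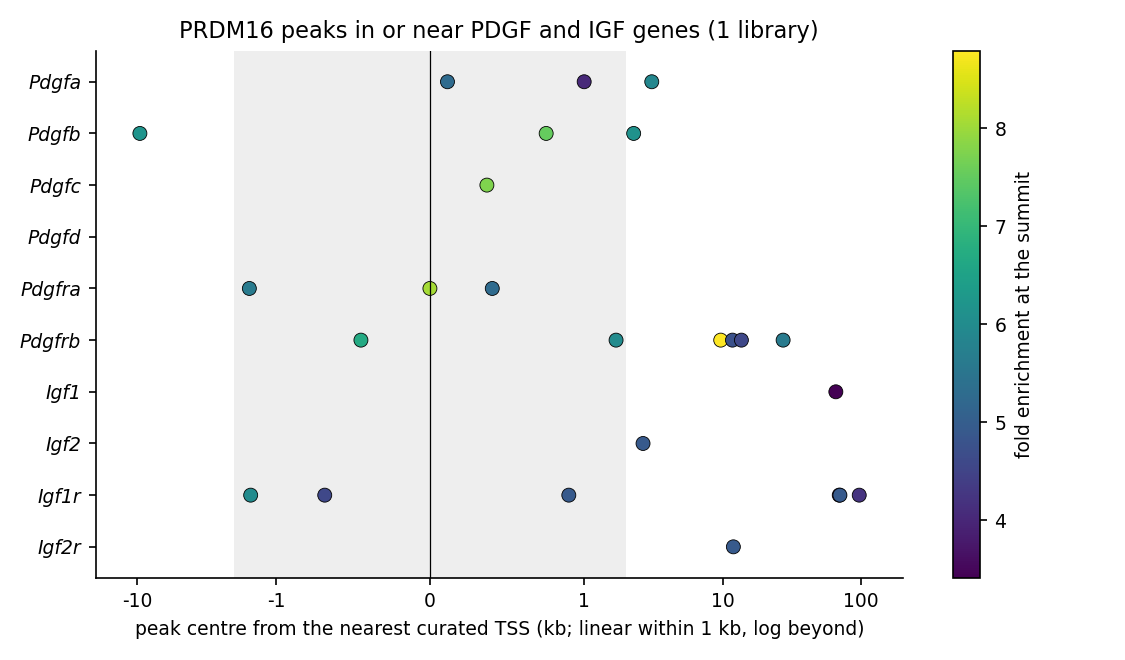
Distance of each PRDM16 peak centre from the nearest curated TSS of its gene, in kb, linear within 1 kb and on a log scale beyond, with positive values downstream and color for the fold enrichment. The shaded band is the promoter window of 2 kb on either side. *Pdgfd* has no peak, and *Igf1*, *Igf2*, and *Igf2r* have peaks outside the band.

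Peaks and RNA came from different cells and can be set side by side only. Of the 4 genes whose aortic levels did not overlap between groups, *Pdgfc* had a promoter peak, *Igf1* and *Igf2r* had an intronic peak, and *Pdgfd* had none. The genes with the most peaks, *Pdgfrb* and *Igf1r*, had aortic log2 fold changes of −0.15 and 0.18, neither called by limma. The study's own list of upregulated genes with a promoter peak holds *Pdgfc* and *Igf1r*.

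Beyond the 10 genes, 93 genes that activate, bind, or transmit PDGF and IGF signals or are related to them were followed in 7 lists, and 83 passed the filter. *Plat* rose and *Irs2* fell, so that 2 of the 83 were called by limma, beside 1.07% of all tested genes. By its own test, the study lists more of them in its supplement, which covers differentially expressed genes with a PRDM16 promoter peak. Besides *Plat* and *Irs2*, it has *Furin*, *Irs1*, and *Htra1* as lower and *Socs2* as higher. Without overlap between the groups, 15 of the 83 were lower in the knockout, beside 14.9% of all tested genes, and 4 were higher, beside 4.08%, both near the background. The median log2 fold change over the 83 was −0.10, close to that of all genes.

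Among 6 tested PDGF-activating proteases, 1 rose and 5 were not called. *Plat*, tissue plasminogen activator, is known to cleave latent PDGF-C. It was 30.25, 26.07, and 30.16 TPM in controls and 62.59, 63.86, and 61.37 TPM in *Prdm16*SMKO aortas. The *Prdm16*SMKO values were far above all controls, with a log2 fold change of 1.12 ± 0.12 and an adjusted *P* of 0.00387 by limma, and it stayed called in all 14 alternatives (0.00277 to 0.0421). It had 2 PRDM16 promoter peaks in fibroblasts. *Furin*, a convertase that processes PDGF-A and PDGF-B, had a log2 fold change of −0.43 and an adjusted *P* of 0.233 by limma, and *Pcsk5*, another proprotein convertase gene, had a log2 fold change of 0.21 and an adjusted *P* of 0.598.

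Among 8 tested insulin receptor and adaptor genes, 1 fell and 7 were not called, and all 8 had log2 fold changes below 0 (median, −0.17), as did 67.9% of all tested genes. *Irs2*, an adaptor of IGF1R and the insulin receptor, was 34.31, 30.30, and 27.75 TPM in controls and 13.85, 17.28, and 12.63 TPM in *Prdm16*SMKO aortas. It fell in all *Prdm16*SMKO aortas below the lowest control, with a log2 fold change of −1.08 ± 0.16 and an adjusted *P* of 0.0153 by limma, and it had 2 PRDM16 promoter peaks in fibroblasts. The call was lost without a mean-variance trend (0.0863) and when any aorta other than *Prdm16*SMKO replicate 2 was left out (0.071 to 0.128). The most abundant genes of the list were not called: *Shc1* (log2 fold change, −0.24), *Grb14* (−0.19), and *Grb2* (−0.15), which encode adaptors.

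No gene was called among 6 tested IGF binding proteins (median log2 fold change, −0.05), 4 IGFBP proteases and their inhibitors (−0.19), 5 genes of the *Igf2* locus or of *Igf2* regulation (−0.38), 10 VEGF ligands and related receptors (0.06), and 44 genes of shared intracellular signaling (−0.16). *Igfbp7*, a binding protein abundant in vessels, was the highest of its list at 3144.28 to 3827.80 TPM over the 6 aortas, and its log2 fold change was −0.02. *Igfbp4* and *Igfbp5* had log2 fold changes of −0.12 and 0.17. *Htra1*, a secreted protease that cleaves IGF binding proteins, was 465.83 to 557.69 TPM in controls and 289.42 to 427.77 TPM in *Prdm16*SMKO aortas, without overlap (log2 fold change, −0.45; adjusted *P* by limma, 0.26). *Stc1* and *Stc2*, which encode stanniocalcins, inhibitors of IGFBP proteases, had log2 fold changes of 0.86 (adjusted *P* by limma, 0.207) and 0.08.

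In the *Igf2* list the 3 most abundant genes were *Airn*, *Plagl1*, and *H19*, with log2 fold changes of −0.38, 0.38, and 0.65, all not called, and *H19*, the noncoding RNA next to *Igf2*, ranged from 0.48 to 3.11 TPM. Among the angiogenic relatives of the PDGFs, *Vegfa*, *Vegfb*, and *Vegfd* had log2 fold changes of −0.04, −0.06, and 0.00. Chosen after their values were seen, *Pgf*, which encodes placental growth factor, and *Kit*, a receptor tyrosine kinase gene, were the genes of that list that were higher without overlap. *Pgf* was 2.09, 2.31, and 2.84 TPM in controls and 4.63, 9.49, and 6.02 TPM in *Prdm16*SMKO aortas with a log2 fold change of 1.39 that missed the threshold of limma (adjusted *P*, 0.0578). *Kit* had a log2 fold change of 0.85, and limma gave it an adjusted *P* of 0.23. In the signaling list 35 of 44 genes (79.5%) had log2 fold changes below 0, beside 67.9% of all tested genes, and 10 were lower without overlap, beside 14.9%. The kinase gene *Akt1*, the phosphatase gene *Ptpn11*, and the kinase gene *Mapk3*, its most abundant members, had log2 fold changes of −0.19, −0.30, and −0.07.

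**Figure D5:**
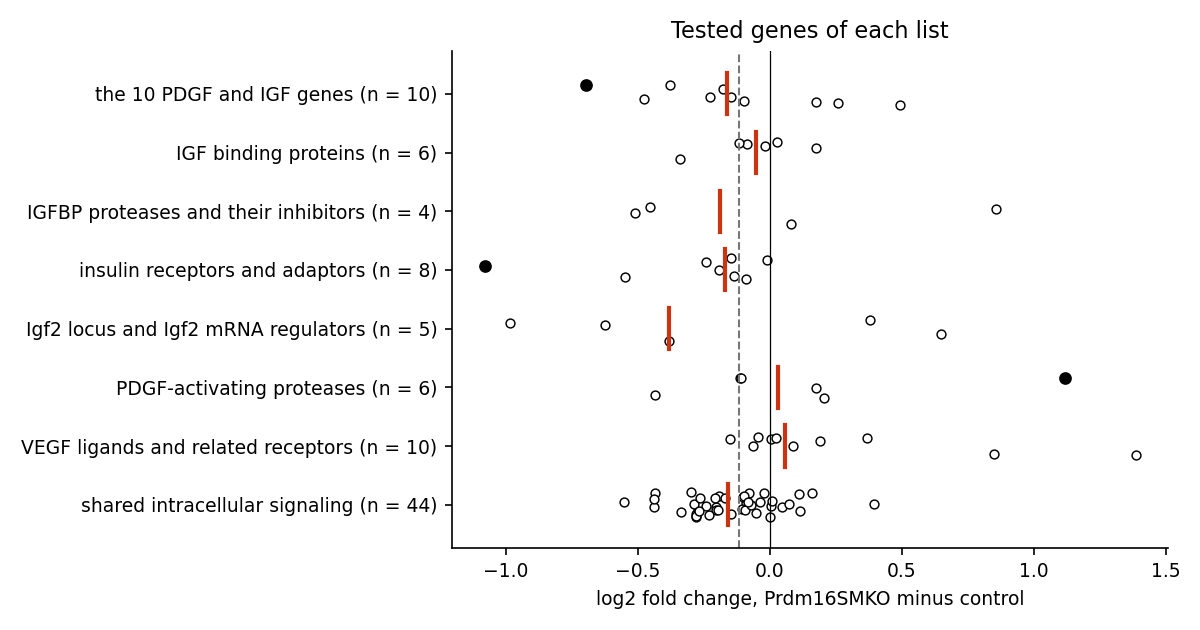
Log2 fold change, *Prdm16*SMKO minus control, of every tested gene in the 10 PDGF and IGF genes and in 7 related lists, with 1 point per gene, red lines at list medians, and a dashed line at the median of all tested genes. Filled points are the called genes, *Pdgfd*, *Irs2*, and *Plat*, with all other points open.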

How the data were processed

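For RNA-Seq the authors deposited TPM, 1 column per aorta. Cutadapt 2.3, STAR 2.7.8a, RSEM 1.3.3, and the build GRCm38 are named in the submitters' processing notes without a role. TPM keep no depth, so the number of reads behind each value is unknown here and tests for counts were not used. limma 3.58.1 (R 4.3.3; lmFit and eBayes with a trend) was fitted to log2(TPM + 0.1) for genes whose mean TPM reached 0.5, without covariates, and *P* values were adjusted by Benjamini-Hochberg over all 15668 tested genes at a threshold of 0.05. Fold changes are on that scale and understate changes of low genes. The aortas were taken as those of 3 mice per group, as the study describes them. The fit was also run on simulated data drawn from its own variance model, which checks the code and not how well the model suits these TPM.

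For ChIP-Seq the authors mapped reads to GRCm38 with bowtie2, called peaks per library with MACS2 at a q of 0.01, and deposited peak positions with a fold enrichment ratio over local background, −log10 p-values, and −log10 q-values, used as given. The MACS2 control is not stated, and the IgG libraries were not analysed here. TSSs, gene spans, and sequences are from RefSeq for GRCm38.p6, read with pysam 0.24.0, and overlapping genes are from GENCODE. Ratios were compared by exact permutation over the aortas.

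The 10 genes, the pathway lists, and the marker lists were chosen with earlier results of these data known. The pathway lists leave out 1 gene, removed at the end for reasons other than its values, which is not reported here. Named are all 10 genes, called pathway genes, the 3 most abundant genes of each pathway list, and *Prdm16*. Other genes, such as CT010467.1, 6330403L08Rik, *Kit*, *Pgf*, and *Socs2*, were named after their values were seen. Alternatives were other pseudocounts, filters, scalings, and variance models, a replicate block, each aorta left out, and other peak windows and q thresholds.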

Additional observations from a re-analysis of the deposited data

How the results depend on the processing

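The 10 PDGF and IGF genes gave 1 call (*Pdgfd*), which remained with pseudocounts of 1 and 0.01 and with a mean TPM of at least 1. There were 2 calls, *Pdgfd* and *Pdgfc*, after rescaling by median ratio and after quantile normalization, and 0 without a filter on TPM, without a variance trend, with the replicate block, and in each of the 6 fits without an aorta (0 to 0). Over all genes these last fits of limma called 29 to 92 genes, against 168 in the main one. Both scalings raised the share of higher genes among all calls from 36.3% to 48.4% and 48.2%, and the call counts to 413 and 392. The fit without a variance trend called 48 and that without a filter 110. Pathway calls went from 2 to 4 under both scalings (*Irs2*, *Pgf*, *Plat*, and *Socs2*), to 3 (*Irs2*, *Pgf*, and *Plat*) with the replicate block and with a minimum mean TPM of 1, to 1 without a trend, and to between 1 and 2 with an aorta left out. The log2 fold change of *Pdgfa* (−0.10) became 0.026 by median ratio, 0.054 by quantile normalization, and between −0.20 and 0.016 with an aorta left out (the highest without control replicate 1), and that of *Pdgfrb* (−0.15) became 0.011 by quantile normalization. The causes were not tested. Aortas of the same replicate number did not deviate together from their group means (correlations of −0.0246, −0.07, and −0.00896). With 3 aortas per group, this cannot exclude a shared effect that is small or limited to some genes. The block gave 184 calls over all genes. The 4 ratios kept their direction in all alternatives. The 6 genes with a promoter peak became 4 with a window from 1 kb upstream to 100 bp downstream, which leaves out *Pdgfb* and *Pdgfc*, and 7 with 5 kb, which adds *Igf2*, and stayed 6 in the other settings. The 25 peaks became 23 at a q of 0.001 and 15 at a q of 1e-05. At 0.001 *Igf1*, like *Pdgfd*, had no peak, and at 1e-05 *Igf2* and *Igf2r* had none either.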

Other observations

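Among the 81 protein-coding genes of the 83 tested pathway genes, 53 (65.4%) had a PRDM16 promoter peak in the fibroblasts. The share was 43.7% for all tested protein-coding genes and 49.3% for those with a mean TPM of at least 7.99. Apart from intracellular signaling the lists are short, so their shares rest on few genes. Of 8 insulin receptor and adaptor genes 7 had such a peak, *Irs2* and *Irs1* with 2 each, and of 44 intracellular signaling genes 29 had one, *Akt1* with 3. Of 6 IGF binding protein genes 3 had one, *Igfbp4*, *Igfbp6*, and *Igfbp7*, whereas *Igfbp2*, *Igfbp3*, and *Igfbp5* had none. These lists were not chosen for their promoters, and the shares were not tested.

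Promoter windows of genes with a PRDM16 promoter peak were richer in CG dinucleotides than those of other genes, with medians of 23 and 7 over 6923 and 16384 windows of 300 bases. The motif AGATAA was present in 5.39% of the first and 11.7% of the second. The *Igf2r* window, with 34 CG dinucleotides and no promoter peak, and the *Pdgfc* window, with 8 and a strong peak, are each on the other side of that difference.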
